A study of Mus musculus with 24 samples.

Results

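The MS4A genes examined here are Ms4a6b, Ms4a6c, Ms4a6d, Ms4a7 and Ms4a4a, chosen by name for the family's link to Alzheimer risk. They were chosen with earlier results of these data known. Of these 5, 4 have a row under their symbol among the 24421 genes of the count table, and all 4 passed the count filter. Ms4a4a was not analysed here. Read counts came from bulk cortex RNA of 24 mice aged 7.5 months. Every mouse carried 5xFAD, a set of human transgenes with familial Alzheimer mutations that drives amyloid deposition. Each genotype had 6 mice: 5xFAD with wild-type Trem2 and Plcg2 (WT), 5xFAD with Trem2 knocked out (Trem2KO), 5xFAD with Plcg2 knocked out (Plcg2KO), and 5xFAD labelled heterozygous for the Plcg2 knockout (Plcg2HET). The Plcg2KO group had 4 males and 2 females, and each other group had 3 of each sex. There was no group without 5xFAD, so a level without amyloid was not measured. Which cells lack the deleted genes was not stated in the labels.

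MS4A proteins cross the membrane several times and are relatives of CD20, the B cell antigen. In the brain the Ms4a6 genes and Ms4a7 are known from microglia and other macrophages, and MS4A7 is widely used to mark macrophages of the brain borders. In people, variants in the MS4A gene cluster are associated with Alzheimer disease and with the amount of soluble TREM2 in cerebrospinal fluid. TREM2 is a lipid-sensing receptor of microglia, and PLCG2 is a phospholipase that acts below it. The comparisons therefore bear on how MS4A transcripts stand when either signalling gene is lost in amyloid-bearing cortex.

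The members lie close together on chromosome 19 (mm10). Ms4a6b spans 11518559 to 11530403 on the plus strand and Ms4a6c spans 11469368 to 11482196 on the plus strand. Ms4a6d spans 11586606 to 11604804 and Ms4a7 spans 11321039 to 11336146, both on the minus strand. The table holds 18 MS4A genes on this chromosome, between 10962295 and 11640851. The coding sequences of Ms4a6b and Ms4a6c were identical at 86.4% of 641 aligned bases, and those of Ms4a6b and Ms4a6d at 81.8% of 729. Ms4a7 was more distant, at 68.9% of 659 bases aligned with Ms4a6b. Ms4a6b was the member that differed most clearly between genotypes, and Ms4a6c is its closest relative among the members. Of this pair, Ms4a6b was called in Plcg2KO against WT and Ms4a6c was not. For that reason the promoters of both are printed. Each is the 250 bases before the start site in RefSeq (GRCm38.p6, plus strand), chr19:11518309-11518558 for Ms4a6b and chr19:11469118-11469367 for Ms4a6c, with the longest stretch that both share, 48 bases, in capitals.
Ms4a6b: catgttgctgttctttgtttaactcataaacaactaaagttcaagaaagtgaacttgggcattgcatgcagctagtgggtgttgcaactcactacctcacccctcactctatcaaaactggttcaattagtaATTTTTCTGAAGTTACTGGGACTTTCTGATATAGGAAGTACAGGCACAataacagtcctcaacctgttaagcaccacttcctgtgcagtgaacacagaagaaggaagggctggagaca
Ms4a6c: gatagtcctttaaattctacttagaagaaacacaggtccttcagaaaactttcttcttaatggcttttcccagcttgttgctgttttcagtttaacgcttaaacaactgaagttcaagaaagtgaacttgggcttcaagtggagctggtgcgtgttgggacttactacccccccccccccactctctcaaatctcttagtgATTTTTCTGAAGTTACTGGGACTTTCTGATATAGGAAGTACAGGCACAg
The shared stretch sits 118 to 71 bases before the start of Ms4a6b and 49 to 2 bases before the start of Ms4a6c. Over the full 300-base RefSeq entries, which run 50 bases past the start, the pair was identical at 85.3% of 225 aligned bases. The letters GAGGAA, taken here as a site of PU.1, were searched on both strands of those entries. They were found in neither gene, against 28.3% of 32851 mouse promoters. The shorter letters GGAA lie in the shared stretch of both genes, so the absence of GAGGAA does not show that PU.1 cannot bind there. The E-box letters CACGTG occur in 7.15% of promoters and were not found in the entries of Ms4a6b, Ms4a6c or Ms4a7. Of the RefSeq entries for Ms4a7, the upstream one held GAGGAA once. No promoter sequence is shown for Ms4a6d.

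The members were low transcripts in whole cortex. Counts per library ran from 47 to 197 for the Ms4a6 genes and from 11 to 50 for Ms4a7, in libraries of 36.3 to 83.0 M counts. Values are in CPM, counts per M library counts after TMM scaling. Mice are named by genotype and the labels' code for sex and number. The ribosomal RNA precursor Rn45s exceeded 5% of counts in 3 libraries, WT F1 (9.59%), Plcg2HET F1 (5.29%) and Plcg2HET F3 (29.0%). Trem2 fell to 6.01 CPM in Trem2KO, 7.29% of WT, and Plcg2 fell to 0.984 CPM in Plcg2KO, 8.32% of WT. Plcg2 stood at 12.0 ± 4.97 CPM in the mice labelled Plcg2HET against 11.8 ± 3.13 in WT (SD, n = 6), so the transcript level does not show the loss of a copy that the label states.

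Ms4a6b rose in Plcg2KO cortex, while Ms4a6c, Ms4a6d and Ms4a7 did not pass the test against WT in any genotype. In WT the lowest Ms4a6b value was 1.20 CPM, the median 1.48 and the highest 1.72. In Plcg2KO the lowest was 1.89, the median 2.28 and the highest 2.61. All 6 Plcg2KO mice were above all 6 WT mice. The mean was 2.28 ± 0.297 CPM against 1.47 ± 0.181 (SD, n = 6), or 155% of WT. The fitted difference was 0.65 on the log2 scale (SE 0.16, 95% interval 0.33 to 0.98, edgeR quasi-likelihood adjusted p = 0.0063). This was the only member called of 4 in that comparison, where 13.1% of all 16316 tested genes were called. Of those tested, 5.44% were called higher and 3.86% had all 6 values above WT. Genes are called at an adjusted p under 0.05 over all tested genes.

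**Figure D1:**
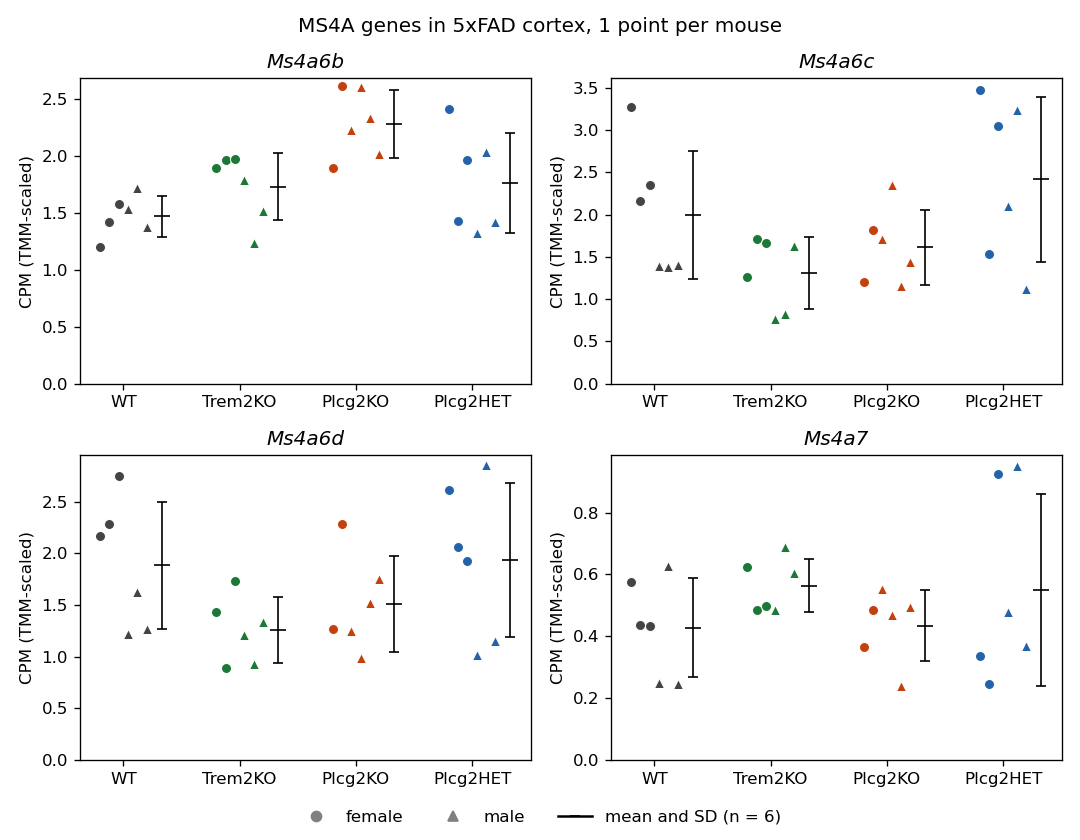
CPM of each member in every mouse, by genotype, with circles for females and triangles for males, and bars for the mean and SD of 6 mice. The Ms4a6b values of Plcg2KO, 1.89 to 2.61 CPM, lie above those of WT, 1.20 to 1.72, while the groups overlap for the other members in the comparisons with WT.

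The Ms4a6b mean in Trem2KO, 1.73 CPM, lay between those of WT (1.47) and Plcg2KO (2.28). It was close to that of Plcg2HET (1.76), with a log2 fold change of -0.02 (SE 0.16, edgeR adjusted p = 0.950). In Trem2KO the lowest value was 1.24 CPM, the median 1.84 and the highest 1.97, with 4 of 6 mice above every WT mouse. The Trem2KO females were at 1.89 to 1.97 CPM and the males at 1.24 to 1.79. The log2 fold change against WT was 0.22 (SE 0.16, 95% interval -0.10 to 0.55, edgeR adjusted p = 0.372), and 0.47 with offsets for GC content and gene length (adjusted p = 0.0734). Plcg2KO stood above Trem2KO by 0.43 (SE 0.16, 95% interval 0.10 to 0.75, adjusted p = 0.0598), with 5 of 6 Plcg2KO mice above every Trem2KO mouse. This difference was not called, where 16.5% of all tested genes were. With the same offsets it was 0.13 (adjusted p = 0.697), and with only these groups fitted 0.45 (adjusted p = 0.0172). The loss of Plcg2 and the loss of Trem2 are therefore not shown to differ in Ms4a6b.

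In the mice labelled Plcg2HET, Ms4a6b had a lowest value of 1.32 CPM, a median of 1.70 and a highest of 2.42. It overlapped WT and stood 0.24 higher on the log2 scale (SE 0.16, edgeR adjusted p = 0.311). With GC and length offsets the value was 0.48 (adjusted p = 0.0654), and without the Rn45s-rich libraries 0.03 (adjusted p = 0.944). Plcg2KO was called higher than Plcg2HET by 0.41 (SE 0.16, 95% interval 0.08 to 0.73, adjusted p = 0.0487), with 2 of 6 Plcg2KO mice above every Plcg2HET mouse. In that comparison 35.2% of all tested genes were called. The call held in 6 of 24 fits with 1 library left out, and the adjusted p reached 0.123. With GC and length offsets the difference was 0.12 (adjusted p = 0.662).

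The difference of Ms4a6b between Plcg2KO and WT was set beside GC content, Rn45s and sex. Ms4a6b has a GC content of 42.0%, below the median gene at 47.5%. In all 6 Plcg2KO libraries the deviations of genes from their mean fell with GC content (Spearman -0.55 to -0.27 across 15693 genes), against -0.49 to 0.26 in WT. The same correlations ran from -0.08 to 0.50 in Trem2KO, without overlap with Plcg2KO, and from -0.43 to 0.54 in Plcg2HET. With GC and length offsets the Plcg2KO difference from WT was 0.59 (adjusted p = 0.0226). Without the 3 libraries over 5% Rn45s it was 0.60 (adjusted p = 0.0122). In 24 of 24 fits with 1 library left out Ms4a6b was called, between 0.58 and 0.72. In males alone it was 0.56 (adjusted p = 0.234) and in females alone 0.71 (adjusted p = 0.122).

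Sequence shared with related and overlapping genes was counted. No 100-base window of Ms4a6b, Ms4a6d or Ms4a7 transcripts occurs in another gene of the GENCODE vM21 transcripts. Of 4561 windows of 50 bases in Ms4a6b, 157 occur in other MS4A transcripts, among them those of Ms4a6c and Ms4a6d. Of 1951 windows of 100 bases in Ms4a6c, 893 (45.8%) occur in other genes, BE692007 on the opposite strand among them. Ms4a6b in turn overlaps the span of an antisense gene, Gm19261, with which it shared no window of 100 bases on either strand. Neither antisense gene has a row in the count table, and no source states whether counting used strand, so reads of Ms4a6c cannot be told apart from those of BE692007 over the shared bases. The deposited expected counts, made by another method, gave a Ms4a6b difference between Plcg2KO and WT of 0.61 (adjusted p = 0.0202).

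Ms4a6c, a macrophage member of the same subfamily, had the largest SD of the Ms4a6 genes in WT, Trem2KO and Plcg2HET, and Ms4a6d in Plcg2KO (0.461 against 0.446 CPM). WT ran from 1.39 CPM to 3.27 with a median of 1.78, and Plcg2KO from 1.16 to 2.35 with a median of 1.58. These groups overlap, and the log2 fold change was -0.17 (SE 0.26, 95% interval -0.71 to 0.37, edgeR adjusted p = 0.718). Trem2KO ran from 0.765 to 1.71 with a median of 1.45, and 3 of 6 mice were below every WT mouse. The fold change against WT was -0.57 (SE 0.26, 95% interval -1.10 to -0.04, adjusted p = 0.138), which was not called. In that comparison 0 of 4 members were called by edgeR and by DESeq2, against 15.7% of all tested genes called, and 2 members had an unadjusted p under the threshold used, Ms4a6c at 0.0358 and Ms4a6d at 0.0244. With only WT and Trem2KO in the fit, the adjusted p-values were 0.0360 for Ms4a6c (-0.54) and 0.0365 for Ms4a6d (-0.53). With GC and length offsets the values were -0.37 (adjusted p = 0.386) and -0.34 (adjusted p = 0.315).

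Mice labelled Plcg2HET had the highest Ms4a6c values, from 1.12 to 3.47 CPM with a median of 2.57. Against WT the log2 fold change was 0.30 (SE 0.26, edgeR adjusted p = 0.448), and 0.52 with GC and length offsets (adjusted p = 0.185). Trem2KO was lower than Plcg2HET by a log2 fold change of -0.87 (SE 0.26, 95% interval -1.40 to -0.34, adjusted p = 0.0219), where 15.5% of all tested genes were called and 9.28% were lower. Both groups overlap, with 2 of 6 Trem2KO mice below every Plcg2HET mouse. The call held in 19 of 24 fits with 1 library left out, which ran from -1.03 to -0.69, and in 7 of 12 other settings. Without Trem2KO M1 the value was -0.78 (adjusted p = 0.0574), without Trem2KO M2 -0.80 (0.0531), and without Trem2KO F1 -0.83 (0.0515). Without Plcg2HET M2 it was -0.69 (adjusted p = 0.0706) and without Plcg2HET F1 -0.78 (0.0571). Leaving out the 3 libraries rich in Rn45s, of which 2 are Plcg2HET, gave -0.67 (adjusted p = 0.150).

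Ms4a6d followed a similar order of means. WT ran from 1.21 to 2.75 CPM with a median of 1.90, Trem2KO from 0.894 to 1.73 with a median of 1.27, Plcg2KO from 0.987 to 2.28 with a median of 1.39, and Plcg2HET from 1.02 to 2.86 with a median of 1.99. All groups overlap. The log2 fold change against WT was -0.54 (SE 0.23, adjusted p = 0.107) in Trem2KO and -0.21 (SE 0.23, adjusted p = 0.599) in Plcg2KO by edgeR. Trem2KO against Plcg2HET stood at -0.61 (SE 0.23, adjusted p = 0.0725), which was not called.

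Ms4a7, the border macrophage marker, was the rarest member and was called in none of the 6 edgeR comparisons. Its medians were 0.435 CPM in WT, 0.550 in Trem2KO, 0.477 in Plcg2KO and 0.422 in Plcg2HET. The ranges overlap, with WT from 0.244 to 0.628 and Plcg2HET from 0.245 to 0.952. The largest log2 fold change against WT was 0.40 in Trem2KO (SE 0.32, 95% interval -0.25 to 1.05, edgeR adjusted p = 0.430). These values rest on 11 to 50 counts per library. Against WT, 0 of 4 members were called in Plcg2HET by edgeR and by DESeq2, where 18.0% of all tested genes were called. No member had an unadjusted p under the threshold used there, the lowest being 0.141 for Ms4a6b.

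**Figure D2:**
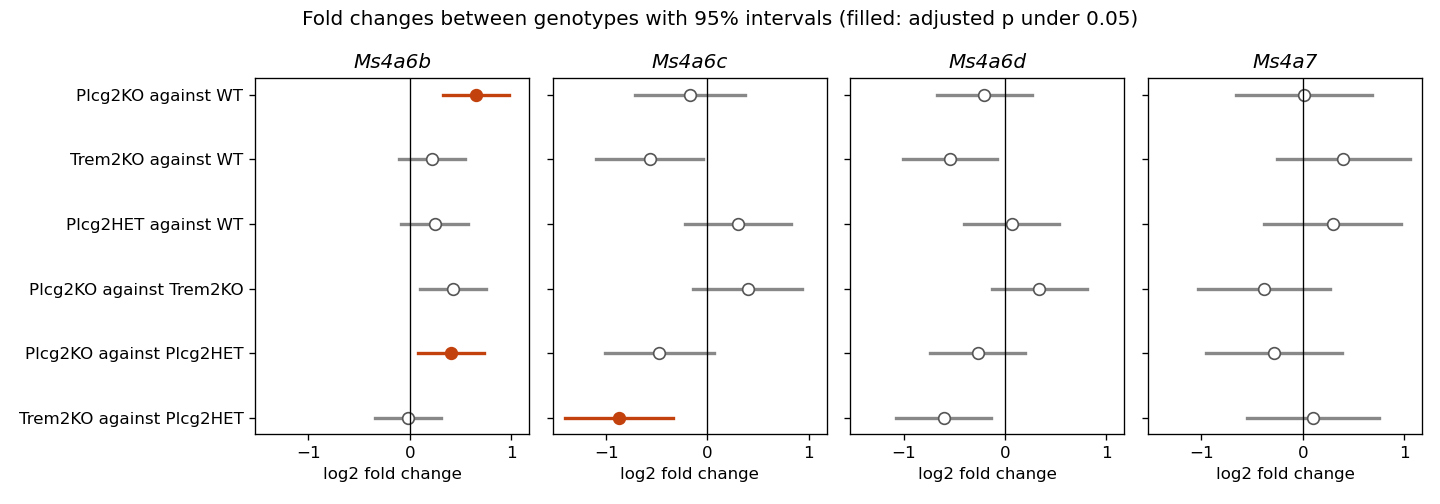
Log2 fold change (horizontal axis) of each member in the 6 comparisons between genotypes, with 95% intervals from edgeR; filled orange points have an adjusted p under 0.05. Ms4a6b is called in Plcg2KO against WT (0.65) and against Plcg2HET (0.41), Ms4a6c in Trem2KO against Plcg2HET (-0.87), and Ms4a7 in none.

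Because the 3 Ms4a6 genes are close relatives, their balance within a library was also computed, as the difference of log2(CPM + 0.5). These ratios were added after the values had been seen and are given as a description, with no test. Ms4a6b relative to Ms4a6c stood at 0.42 ± 0.22 in Plcg2KO, 0.33 ± 0.32 in Trem2KO, -0.31 ± 0.33 in Plcg2HET and -0.29 ± 0.51 in WT (SD, n = 6). The difference from WT was 0.71 in Plcg2KO and 0.62 in Trem2KO. Ms4a6b relative to Ms4a6d differed from WT by 0.73 in Plcg2KO and 0.59 in Trem2KO. Ms4a6c relative to Ms4a6d differed from WT by 0.02 in Plcg2KO and -0.03 in Trem2KO. All of these ratios overlap between groups, and in Plcg2HET they differed from WT by -0.02, 0.17 and 0.19. The ratios were not adjusted for sex, and Plcg2KO had 2 females and 4 males. In WT, Ms4a6b relative to Ms4a6c was -1.15 to -0.45 in females and -0.02 to 0.23 in males. Relative to Ms4a6d it was -0.65 to -0.53 and 0.06 to 0.25. In Plcg2KO the Ms4a6c ratio was 0.43 to 0.49 in females and 0.13 to 0.78 in males. The Ms4a6d ratio there was 0.16 to 0.44 and 0.16 to 1.06. The part of sex in these differences was not tested.

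**Figure D3:**
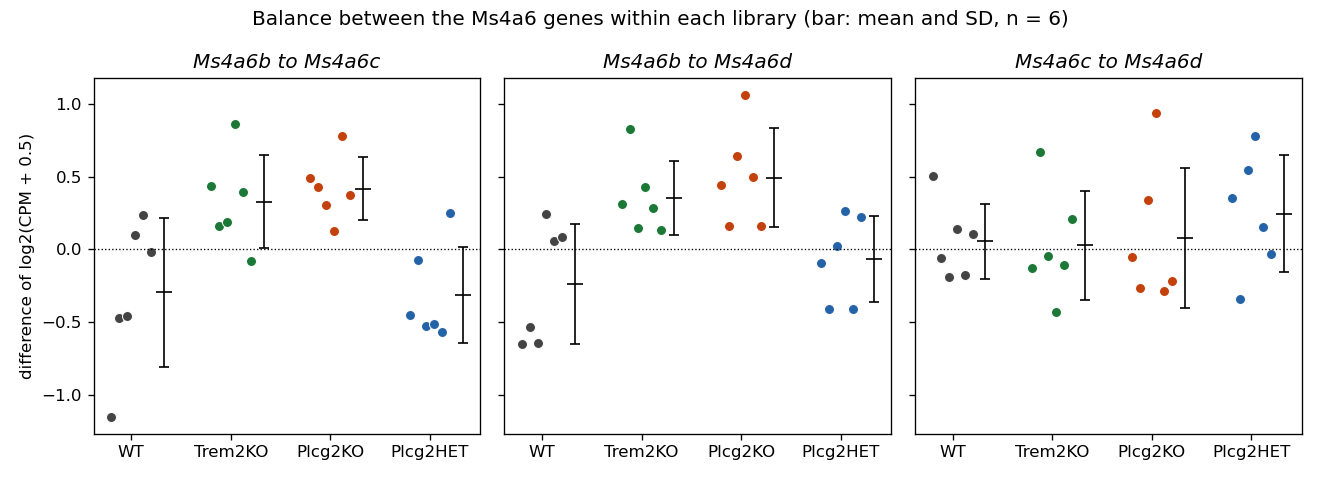
Difference of log2(CPM + 0.5) between pairs of Ms4a6 genes in each library (vertical axis), by genotype, with bars for the mean and SD of 6 mice; the dotted line marks equal CPM. In Plcg2KO the Ms4a6b to Ms4a6c difference is above 0 in every mouse (0.13 to 0.78), against -1.15 to 0.23 in WT. The sexes are not marked. WT females lie at -1.15 to -0.45 and WT males at -0.02 to 0.23.

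On a scale per length, the deposited TPM (transcripts scaled to gene length and library size), the order of the genes also differed. In WT, Ms4a6d was highest at 3.42 ± 0.848 TPM, then Ms4a6c at 2.60 ± 0.760, Ms4a6b at 1.80 ± 0.329 and Ms4a7 at 0.712 ± 0.317 (SD, n = 6). In Plcg2KO, Ms4a6b stood at 2.84 ± 0.361 TPM, beside Ms4a6d at 2.76 ± 0.804, Ms4a6c at 2.15 ± 0.515 and Ms4a7 at 0.808 ± 0.192. Ms4a6b was above Ms4a6c in 6 of 6 Plcg2KO mice and in 2 of 6 WT mice. Those WT mice were the males M1 (2.01 against 1.81 TPM) and M2 (2.23 against 2.22), while in every WT female Ms4a6b was below Ms4a6c. Ms4a6b was above Ms4a6d in 4 of 6 Plcg2KO mice and in 0 of 6 WT mice. In Trem2KO the Ms4a6 genes did not separate, at 2.13 ± 0.243 TPM for Ms4a6b, 2.07 ± 0.832 for Ms4a6c and 2.31 ± 0.615 for Ms4a6d. Ms4a7 was lowest in every library.

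These levels stood beside a large fall of microglial transcripts. The gene lists used from here on were chosen with earlier results of these data known. Of 15 pan-microglial genes, 15 fell in Plcg2KO and 14 in Trem2KO, with medians over the list of -1.11 and -0.83 on the log2 scale, against 7.63% and 8.16% of all tested genes called lower and medians of -0.00 and -0.02 over all of them. Csf1r, the receptor for the survival factor CSF1, fell by 0.60 in Plcg2KO. In bulk cortex, fewer microglia and less RNA per microglial cell cannot be told apart. Relative to the mean of the 15 genes, each member was higher in Plcg2KO than in WT with no overlap (exact permutation p = 0.00216, the smallest that 6 against 6 mice can give), by 1.63 for Ms4a6b, 0.93 for Ms4a6c, 0.90 for Ms4a6d and 1.16 for Ms4a7. Since the reference itself was lower by 1.14, a gene of equal CPM in both groups stands 1.14 higher on this scale, and 63.0% of all tested genes were without overlap above WT. The count of 4 of 4 members is therefore not particular to them. Relative to 12 homeostatic genes instead, Ms4a6b (1.06) did not overlap WT, while Ms4a6c (0.35), Ms4a6d (0.33) and Ms4a7 (0.58) did. That reference was itself lower by 0.57 in Plcg2KO, so a gene of equal CPM stands 0.57 higher on its scale. The share of all tested genes without overlap was not computed there.

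In Trem2KO the reference was lower by 0.84, and 47.7% of all tested genes had every relative value above WT. Ms4a6b (1.02) and Ms4a7 (1.06) also did (both exact permutation p = 0.00216). Ms4a6c (0.40, exact permutation p = 0.0130) and Ms4a6d (0.42, exact p = 0.0108) stood higher with overlap, by less than the fall of the reference. In Plcg2HET, where 0.159% of all tested genes had every relative value above WT, the 4 differences lay between -0.04 and 0.15 (exact permutation p from 0.435 to 0.803). Over the 24 libraries, after subtraction of the genotype means, Ms4a6c and Ms4a6d correlated with the pan-microglial mean (Pearson 0.68 and 0.70), and Ms4a6b and Ms4a7 less (0.39 and 0.22). Sex was not subtracted, and these points share depth and library preparation.

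**Figure D4:**
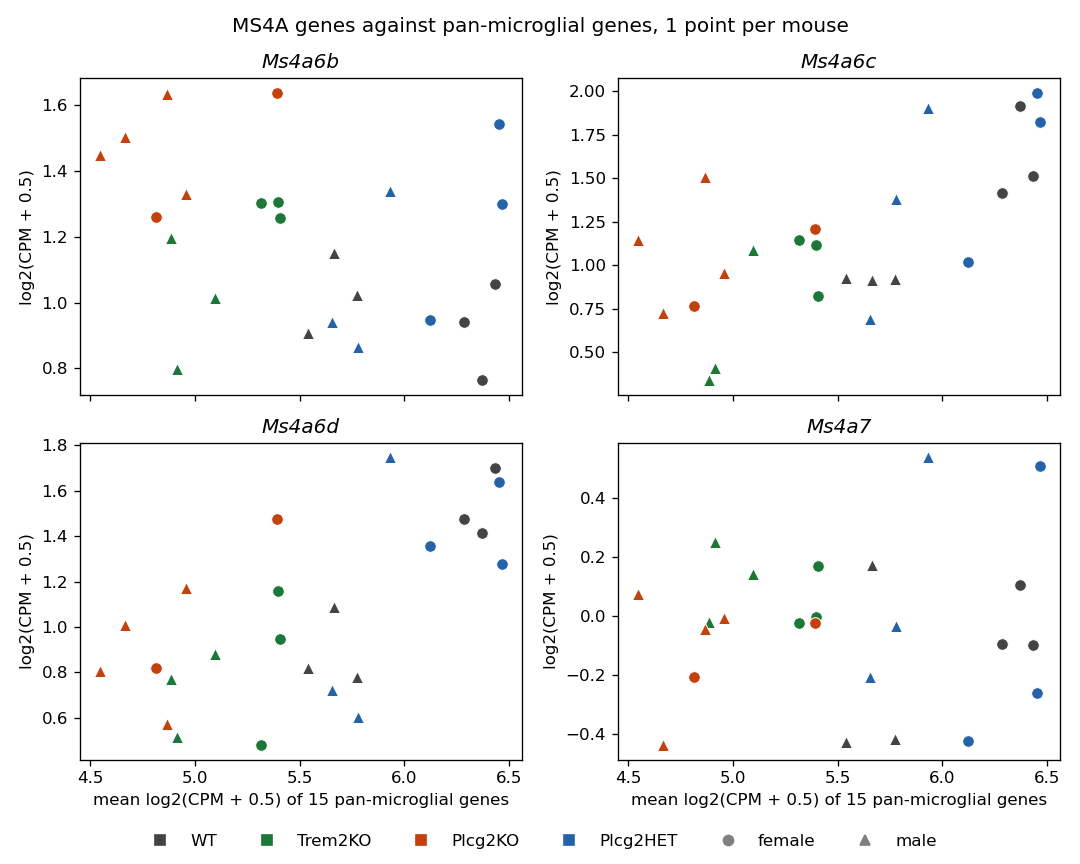
Log2(CPM + 0.5) of each member (vertical axes) against the mean of 15 pan-microglial genes on the same scale (horizontal axis), 1 point per mouse, coloured by genotype. The pan-microglial means of Plcg2KO (4.55 to 5.39) and Trem2KO (4.88 to 5.41) overlap each other and lie below those of WT (5.54 to 6.44), and Plcg2KO has the highest group mean of Ms4a6b.

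Markers of the other cells that can carry MS4A transcripts were counted beside these results. Of 11 border-associated macrophage genes, 4 rose and 0 fell in Plcg2KO (median 0.35), against 5.44% of all tested genes called higher. Mrc1, a mannose receptor of perivascular macrophages, rose by 0.91 in Plcg2KO (adjusted p = 0.00154, edgeR) and by 0.81 in Trem2KO (adjusted p = 0.00405). The more abundant Stab1 (0.19, adjusted p = 0.476) and Dab2 (0.26, adjusted p = 0.122) were not called in Plcg2KO. The summed level of the list was 39.5 to 48.5 CPM in Plcg2KO against 28.2 to 38.7 in WT. It was also higher in Trem2KO, at 44.3 to 59.8 (5 of 11 rose, against 7.56% of all tested genes), and in Plcg2HET, at 37.3 to 56.3 (6 of 11 rose, against 10.9%). Of 5 tested monocyte genes 1 rose in Plcg2KO, S100a9, from 0.0505 to 0.300 CPM, and the list of 10 summed to 17.3 to 21.7 CPM against 12.8 to 16.1 in WT. Most of that sum was Vcan, at a mean of 16.8 CPM in Plcg2KO and 12.3 in WT, which was not called (adjusted p = 0.0563, edgeR). Ccr2 stood at 0.291 against 0.241 CPM and Itgal at 1.01 against 1.23, neither called. Of 5 tested T cell genes 0 were called in any of the comparisons with WT, and the 6 genes of the list in the table summed to 16.1 to 24.3 CPM in Plcg2KO against 17.0 to 17.7 in WT, most of it Cd4. Of 3 tested B cell genes 0 were called there either, and the list of 6 summed to 0.570 to 0.688 CPM against 0.533 to 1.25. Of 6 mast cell genes 1 was tested, Hdc, the histamine-making enzyme, which fell by 0.93 in Plcg2KO. Mean levels under 0.1 CPM were seen for 5 of 10 monocyte, 3 of 6 B cell and 5 of 6 mast cell genes. The part of these cells in the Ms4a6b result was not tested.

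The sexes separated in WT and overlapped in the other genotypes for Ms4a6c and Ms4a6d. In WT, Ms4a6c stood at 2.17 to 3.27 CPM in the 3 females and 1.39 to 1.40 in the 3 males, and Ms4a6d at 2.16 to 2.75 against 1.21 to 1.63. The pan-microglial sum of the same mice was 2043 to 2170 CPM in females and 1246 to 1502 in males. In Plcg2KO the Ms4a6c range was 1.20 to 1.81 CPM in the 2 females and 1.16 to 2.35 in the 4 males. Across genotypes the female excess was 0.42 for Ms4a6c (edgeR adjusted p = 0.399) and 0.46 for Ms4a6d (adjusted p = 0.209), and neither was called, where 2.37% of all tested genes were. Ms4a6b differed by 0.12 (adjusted p = 0.724). Its sexes separated in Trem2KO, at 1.89 to 1.97 CPM in females and 1.24 to 1.79 in males, and overlapped in the other genotypes. In 12 tests of whether a difference from WT depends on sex, 0 members were called, as were 0 of all tested genes, and 0 members had an unadjusted p under the threshold used. The lowest was Ms4a6c in Plcg2KO, with a fold change 1.02 lower in females than in males (-1.02, SE 0.53, unadjusted p = 0.066, edgeR adjusted p = 0.636).

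The rest of the family was mostly silent in cortex. Ms4a5, Ms4a10, Ms4a13 and Ms4a18 had 0 counts in every library. Ms4a1, which encodes CD20, had 10 counts over all 24 libraries, Ms4a2, the mast cell IgE receptor subunit, had 9, and Ms4a3 had 3. Ms4a4b and Ms4a15 were the only other MS4A genes of the cluster to pass the count filter. Ms4a4b, a T cell member, stood at 0.145 CPM in WT and 0.256 in Plcg2KO (edgeR adjusted p = 0.313). It was called higher in Plcg2KO than in Trem2KO at 1.99 (SE 0.65, adjusted p = 0.0376), a call that held in 16 of 24 fits with 1 library left out, with an adjusted p of up to 0.0898. Every fit that lost the call had left out a library of Plcg2KO or Trem2KO, the groups compared.

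Ms4a15, known from lung epithelium, was called higher in Trem2KO than in WT at 3.05 on the log2 scale (SE 0.85, edgeR adjusted p = 0.0146). Its counts in Trem2KO were 142 in M1, 23 in M2, 1 in M3, 47 in F1, 218 in F2 and 18 in F3, against 1 to 34 in WT. Leaving out M1 gave 2.46 (adjusted p = 0.0616) and leaving out F2 gave 2.51 (adjusted p = 0.0627), so the call rests on these libraries.

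Tmem176a and Tmem176b encode MS4A-related membrane proteins of myeloid cells and lie next to each other on chromosome 6. Tmem176a stood at 25.5 ± 6.84 CPM in WT, 19.2 ± 3.58 in Trem2KO, 12.3 ± 1.95 in Plcg2KO and 31.6 ± 10.5 in Plcg2HET (SD, n = 6). All 6 Plcg2KO mice, with a highest value of 15.2, were below the lowest WT mouse at 16.5, as were 4.75% of all tested genes. Tmem176a fell by 0.94 in Plcg2KO (SE 0.15, edgeR adjusted p = 9.65e-05) and Tmem176b by 0.76 (SE 0.13, adjusted p = 0.00023). In Trem2KO the values against WT were -0.40 (adjusted p = 0.0638) and -0.28 (adjusted p = 0.138). In Plcg2KO they went with the pan-microglial genes, and Ms4a6b did not.

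Other signalling and risk genes are counted against all tested genes, of which 7.63% fell and 5.44% rose in Plcg2KO, and 8.16% fell and 7.56% rose in Trem2KO. Of 16 TREM2 signalling genes, 12 fell in Plcg2KO and 8 in Trem2KO, with Tyrobp, the adaptor of TREM2, at -1.49 and -1.36. Of 27 tested risk genes of myeloid cells, 14 fell and 1 rose in Plcg2KO, and 10 fell and 3 rose in Trem2KO. The signalling and risk lists both hold Trem2 and Plcg2, so these counts include the deleted gene itself. Plcg2 stood at -3.48 in Plcg2KO and Trem2 at -3.70 in Trem2KO. Of 20 plaque-responsive microglial genes 19 fell in Plcg2KO, and of 12 homeostatic ones 8 fell and 1 rose. Among the nearest non-MS4A genes of the region, Ccdc86, which flanks it, and AW112010, which lies inside it, were tested, and neither was called against WT in any genotype, with Plcg2KO values of -0.14 and -0.34.

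Genes whose levels went most closely with a member across the 24 libraries, after subtraction of the genotype means, differed between members. For Ms4a6c they were Cotl1 (Pearson 0.90), Rhoc (0.90) and S100b (0.88), and for Ms4a6d Hmga2-ps1 (0.87), Tmem125 (0.83) and Cd3g (0.81). Ms4a6b was closest to Cdc42bpg (0.77), Ubn1 (0.76) and Smarcd2 (0.75), and Ms4a7 to Krcc1 (0.77), Pabpn1 (0.76) and Cdkn2c (0.76). No gene was among the closest of more than 1 member. Members correlated with each other at 0.13 to 0.48 on the same measure. The named genes are the 3 highest for each member among the tested genes, and sex was not subtracted. Cd3g was near the floor, at group means of 0.0793 CPM in Trem2KO to 0.164 in WT.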

How the data were processed

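The authors deposited whole-number counts per gene. STAR 2.7.10a, featureCounts 2.0.3 and mm10 are named in the submitters' processing notes. Expected counts, TPM and FPKM per gene were deposited by the authors in a second table, per the file headers, which do not name the tool. FPKM values entered no result. Expected counts, rounded, entered 1 alternative. The counts of 24 libraries were fitted in R 4.3.3 with edgeR 4.0.16 (quasi-likelihood, robust, TMM, filterByExpr minimum 10, 1 mean per genotype plus sex). 16316 genes passed, and p-values were adjusted by Benjamini-Hochberg over all of them. The fit was checked on simulated counts. Single values were compared by two-sided exact permutation. Nothing states whether mice of a group shared litters or preparation days, so p-values measure the spread between these mice. GC and length offsets, within-library ratios and the fits of other MS4A genes were added after the data were seen. DESeq2 1.42.0 served as an alternative. Members and gene lists were chosen with earlier results of these data known. Named genes were the members, both targeted genes, up to 3 of the highest by CPM of each list, other tested MS4A genes, the 3 most correlated genes of each member and the flanking genes. Mrc1 is among the 3 highest of its list, and S100a9 was named as the 1 monocyte gene called in Plcg2KO. Sequences came from RefSeq (GRCm38.p6) and GENCODE vM21.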

Additional observations from a re-analysis of the deposited data

How the results depend on the processing

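Of 576 log2 fold changes of members refitted with a library left out, 534 kept direction and side of the threshold, 15 changed sign, 23 lost a call and 4 gained one. Of 282 under other settings, the numbers were 248, 11, 16 and 7. Ms4a6b in Plcg2KO against WT was called in all settings except each sex alone, with 0 members called in each, where fewer mice were fitted. Counts of members called against other genotypes were less stable. For Plcg2KO against Plcg2HET (1 in the report) the count was 0 with RLE size factors, without a count filter, without the sex term, with the replicate block, in each sex alone, with only those groups, with expected counts and with GC and length offsets, and ran from 0 to 1 with a library left out. For Trem2KO against Plcg2HET (1) it was 0 with the replicate block, in each sex alone, with only those groups and without the Rn45s-rich libraries, 2 with DESeq2 and with GC and length offsets, and ran from 0 to 2 with a library left out. For Plcg2KO against Trem2KO (0) it was 1 with only those groups, with DESeq2 and without the Rn45s-rich libraries, and ran from 0 to 1 with a library left out. For Trem2KO against WT (0) it was 2 with only those groups. The cause was not tested. Mice with the same code did not deviate together more than others (33 pairs, correlations from -0.35 to 0.19, against -0.38 to 0.49 for 183 other pairs). No pairing by code was seen, but such correlations cannot show whether mice shared a litter or preparation day. In the other comparisons the replicate block left the count of members called as it was.

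Relative to the homeostatic list instead of the pan-microglial one, Ms4a6c in Plcg2KO was 0.35 (exact permutation p = 0.0628), Ms4a6d 0.33 (p = 0.0281) and Ms4a7 0.58 (p = 0.00866), all overlapping WT, and in Trem2KO Ms4a6c was 0.0629 (p = 0.690) and Ms4a6d 0.0895 (p = 0.485). With a pseudocount of 0.1 the Trem2KO values were 0.30 (exact permutation p = 0.0736) and 0.34 (p = 0.0519), and Ms4a7 overlapped WT in both knockouts (1.21 in Plcg2KO, 1.24 in Trem2KO). Ms4a6b did not overlap WT in either knockout under these settings. The homeostatic reference itself was lower by 0.57 in Plcg2KO and 0.51 in Trem2KO, so a gene of equal CPM stands that much higher on its scale.

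Sign changes touched only values that were not called in either fit (lowest adjusted p 0.282 in the report's fit). In males alone, Plcg2KO against WT was 0.24 for Ms4a6c and 0.00105 for Ms4a6d, and Trem2KO against WT was -0.0195 for Ms4a6b. In females alone, Ms4a7 was -0.14 in Plcg2KO and -0.0353 in Plcg2HET, and Ms4a6d was -0.0946 in Plcg2HET, all against WT. Females alone also gave -0.0343 for Ms4a6c in Plcg2KO against Trem2KO and 0.0130 for Ms4a6b in Trem2KO against Plcg2HET. Expected counts gave -0.0201 for Ms4a6d in Plcg2HET against WT, GC and length offsets -0.00190 for Ms4a7 in Plcg2KO against WT, and the fit without the Rn45s-rich libraries 0.14 for Ms4a6b in Trem2KO against Plcg2HET. The Ms4a6b to Ms4a7 ratio of Plcg2HET against WT was -0.00554 with a pseudocount of 0.1. With a library left out, values ran from -0.13 to 0.18 for Ms4a7 in Plcg2KO against WT, from -0.18 to 0.16 for Ms4a6d in Plcg2HET against WT, and in Trem2KO against Plcg2HET from -0.0914 to 0.0944 for Ms4a6b and -0.0693 to 0.37 for Ms4a7. Counts of all genes called ranged over settings from 369 to 3557 in Plcg2KO against WT and from 72 to 4780 in Trem2KO against WT. Counts of 11 to 50 limit Ms4a7.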
